A study of Mus musculus with 10 samples.

Results

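To learn where Pax5 bound the repeated portion of the genome in pro-B cells, 18830 ChIP-seq peaks were examined as a group. They were taken from the 41983 Pax5 peaks of Pax5+/+ Rag2-/- pro-B cells by position and sequence only. Each was under 1000 bp wide, overlapped none of the 18821 peaks of Pax5R31Q/- pro-B cells, and had at least 50% of its bases in the soft-masked, repeat part of the GRCm38 genome. They are called masked lost peaks here, and they made up 44.9% of the Pax5+/+ list and 71.7% of its 26245 lost peaks under 1000 bp. A peak was lost in the sense that no peak of the mutant list met it. The lists give no read density, so weaker binding and no binding cannot be told apart.

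The ChIP-seq libraries came from bone marrow pro-B cells of C57BL/6 background, cultured on OP9 stromal cells with IL-7 and precipitated with a rabbit antibody to the Pax5 paired domain, with 1 library per genotype. The Pax5+/+ library was from mice that lack Rag2, so the loss of Rag2 and the Pax5 genotype cannot be told apart in these lists. The Pax5R31Q/- library carried 1 Pax5 allele with the exchange of arginine 31 for glutamine, made by genome editing in zygotes, and 1 null allele. Its genotype label reads Pax5(R31Q/-), while its description writes Rag2(R31Q/-). RNA-seq was from cells sorted directly from bone marrow, with 2 libraries each of Pax5+/+, Pax5+/-, Pax5R31Q/- and Pax5-/- cells, the last from Pax5(fl/fl) Vav-Cre mice, in which Cre acts throughout the blood lineage. Expression is given as TPM, the length-scaled share of the transcripts of a library, and nothing in the labels says whether libraries of a genotype came from separate mice.

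Pax5 is the transcription factor that commits lymphoid progenitors to the B cell lineage, and it contacts DNA with its paired domain, whose N-terminal and C-terminal subdomains read different parts of a long site. Known strong Pax5 sites can hold CANCCANG, which runs directly into GCGTGAC and shares the G with it. LINE-1 elements are retrotransposons that spread through the mouse genome by copying their RNA into DNA. Most copies are no longer active, and they are dense in gene-poor chromatin and on the X chromosome.

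One sequence accounted for nearly all masked lost peaks. The 24-base word found most often in them was present, with at most 2 mismatches on either strand, in 17863 of the 18830 peaks (94.9%, exact binomial 95% interval 94.5 to 95.2%), and in exact form in 13845 (73.5%). It was found in 3 of 7415 lost peaks that were under 50% masked and in 77 of 14857 shared peaks under 1000 bp (0.518%). Because the word lies in masked sequence, peaks that are mostly unmasked could rarely hold it, and among the 405 shared peaks that were at least 50% masked 76 (18.8%) did. The word is shown with the most frequent base at each place around it in 13400 exact copies under masked lost peaks, because nearly every result below refers to it. Capitals mark the word, which is numbered from 1 to 24.
majority sequence around the word: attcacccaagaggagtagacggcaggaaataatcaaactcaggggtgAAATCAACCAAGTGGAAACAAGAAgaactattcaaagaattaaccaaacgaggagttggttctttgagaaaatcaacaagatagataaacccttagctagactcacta

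From general knowledge, and not from an annotation of repeats, this stretch belongs to the second open reading frame of LINE-1 in its sense orientation. Along the 156 bases shown, the most frequent base was present in at least 70.2% of copies, with a median of 95.5%. Positions 5 to 12 of the word match CANCCANG, which also occurs 1 time upstream of the word, at bases 4 to 11 of the stretch shown. After it, positions 12 to 18 carry 3 of the 7 letters of GCGTGAC in the same register. CANCCANG, searched on both strands, was present in 97.4% of masked lost peaks, 34.8% of the other lost peaks, 34.4% of shared peaks and 18.4% of 5297 windows of 317 bp spaced evenly over the genome. GCGTGAC in exact form, also on both strands, was present in 0.266% of masked lost peaks, against 5.45% of the other lost peaks, 9.36% of shared peaks and 0.472% of genome windows. With 1 mismatch allowed, GCGTGAC was found in 84.3% of masked lost peaks, 49.3% of the other lost peaks, 71.6% of shared peaks and 20.8% of genome windows, and in the 300 bases of majority sequence around the word it occurred 1 time.

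Peaks were centred on the word. In the 17863 peaks that held it, the centre of the word lay at a median of 1 bp from the midpoint of the peak (interquartile range -8 to 9 bp along the word), and in 92.8% it lay within 25 bp. The edges of the peaks lay at a median of 160 bp upstream and 159 bp downstream of it. The masked lost peaks were of uniform size, since the central 50% of them measured 296 to 335 bp, around a median of 317 bp, while those of the shared peaks under 1000 bp measured 348 to 604 bp, around 454 bp. The other lost peaks were of a similar median width, 309 bp, over a wider central range of 268 to 365 bp. The following stretches come from introns of Dlg2, which encodes a synaptic scaffold protein. They show a copy with several differences from the majority sequence and a copy closer to it. Both are on the plus strand of GRCm38, at chr7:92246684-92246833 and chr7:92074763-92074912, with the word in capitals.
Dlg2 intronic copy 1: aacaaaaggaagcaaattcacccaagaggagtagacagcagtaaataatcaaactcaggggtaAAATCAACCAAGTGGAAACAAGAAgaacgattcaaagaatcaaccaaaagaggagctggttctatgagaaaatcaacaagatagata
Dlg2 intronic copy 2: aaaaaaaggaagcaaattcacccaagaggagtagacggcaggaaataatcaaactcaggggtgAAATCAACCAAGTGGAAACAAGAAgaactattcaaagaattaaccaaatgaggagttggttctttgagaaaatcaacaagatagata

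Both peaks are 100% masked, but they differ in how often their sequence recurs. Of the 50-base windows of the peak at copy 1, 68.4% occur once in the genome, and none of those of copy 2 does, with a median of 2302 occurrences per window.

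Seen from the genome, an exact copy of the word was almost always under a masked lost peak. The genome held 14682 exact copies, of which 13846 (94.3%, 93.9 to 94.7%) lay whole in such a peak. A single mismatch lowered this to 3399 of 6437 copies (52.8%, 51.6 to 54.0%), and 2 mismatches to 622 of 3695 (16.8%, 15.6 to 18.1%). With 3 and 4 mismatches, 5.37% and 2.15% of copies were under a masked lost peak. The shares under any peak of the Pax5+/+ list, whether lost or shared, were 94.6%, 53.2%, 17.3%, 5.72% and 2.2% from 0 to 4 mismatches. The word was chosen as the one found most often in exact form in these same peaks. The high share of exact copies and the fall with mismatches therefore follow in part from that choice. Masked lost peaks by definition meet no Pax5R31Q/- peak. The low numbers in the mutant list thus also follow in part from taking the word from them and are given as a description only. In each class between 0.0326% and 0.460% of copies lay under a Pax5R31Q/- peak, and 35 of the exact copies did. All 77 Pax5R31Q/- peaks that held the word with at most 2 mismatches overlapped a Pax5+/+ peak. The intervals cover counting error only, and copies in a genome are related by descent and are not independent.

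**Figure D1:**
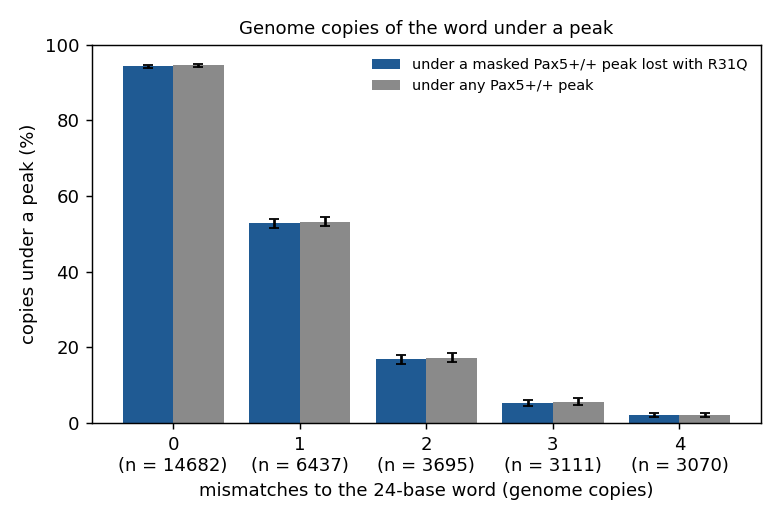
Share of genome copies of the 24-base word (%) that lie under a masked lost peak of the Pax5+/+ list (blue) or under any Pax5+/+ peak (grey), by the number of mismatches to the word, with exact binomial 95% intervals and the number of copies under each class. The blue bars fall from 94.3% at 0 mismatches to 2.15% at 4, and the grey bars from 94.6% to 2.2%.

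The differences between copies were next resolved by position. Copies were aligned through a second repeated word that begins 62 bp downstream in most of them. Of the 29966 copies of the second word, 4738 with the first word at another distance were left out. The first word thus had some part in which copies were read. Among the 4614 aligned copies with exactly 1 substitution in the word, the share under a masked lost peak depended on where the substitution lay. At each of positions 19 to 24 it was between 79.8% and 92.5%, and at each of positions 1 to 18, apart from position 7, between 17.9% and 65.8%. At the 6 fixed letters of CANCCANG it was 41.2% of 1528 copies, and at all other positions 66.6% of 3086, of which 1326 were at position 22. At positions 8 to 20 it was 40.5% of 1733 copies, and at positions 1 to 4 or 21 to 24 it was 78.4% of 1857. Low shares were thus not limited to CANCCANG. Position 18 had the lowest value, with 25 of 140 copies (17.9%, 11.9 to 25.2%), followed by positions 17 with 22.2% and 9 with 26.5%. Position 7, which is an N in CANCCANG, had the highest, with 98 of 104 copies (94.2%, 87.9 to 97.9%), similar to the 95.9% of aligned copies with the exact word. Position 11, the other N, had 65.8%.

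Substitutions with high and with low shares are shown as the word with the changed base in capitals, because they differ by 1 base within the same repeat. The base of the word is named before the position and the base of the copies after it.
A7T: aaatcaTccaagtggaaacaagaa
C9A: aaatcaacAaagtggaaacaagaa
G12A: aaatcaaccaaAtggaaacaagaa
G14A: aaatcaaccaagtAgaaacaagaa
A18T: aaatcaaccaagtggaaTcaagaa
C19A: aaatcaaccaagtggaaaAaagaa
A20G: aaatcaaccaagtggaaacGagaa
G22A: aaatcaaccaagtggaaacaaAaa

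Of these, A7T was under a masked lost peak in 35 of 35 copies and A20G in 27 of 27. C19A followed with 58 of 62 copies (93.5%) and G22A, the most common substitution, with 1065 of 1276 (83.5%). At the other end, A18T lay under a masked lost peak in 8 copies (7.92%, 3.48 to 15%) and C9A in 9 of 71 (12.7%). G12A stood at 22.5% of 120 copies and G14A at 27.2% of 228. The adjacent positions 18 and 19 thus differed widely. Different bases at a position also differed, since C9G was under a masked lost peak in 63.6% (45.1 to 79.6%) of 33 copies and C9A in 12.7% (5.96 to 22.7%).

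Outside the word, most substitutions went with small differences. Among aligned copies with the exact word, a base that differed from the majority at 1 of the 80 flanking positions left a median of 89.0% of copies under a masked lost peak, and 74 of these positions had at least 80%. The exceptions included position 33 with 53.2% of 301 copies, position 52 with 63.8% of 343 and position 35 with 67.1% of 538. Copies that carry the same substitution often share other differences from the majority sequence, and the part of these in the values by position was not tested.

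**Figure D2:**
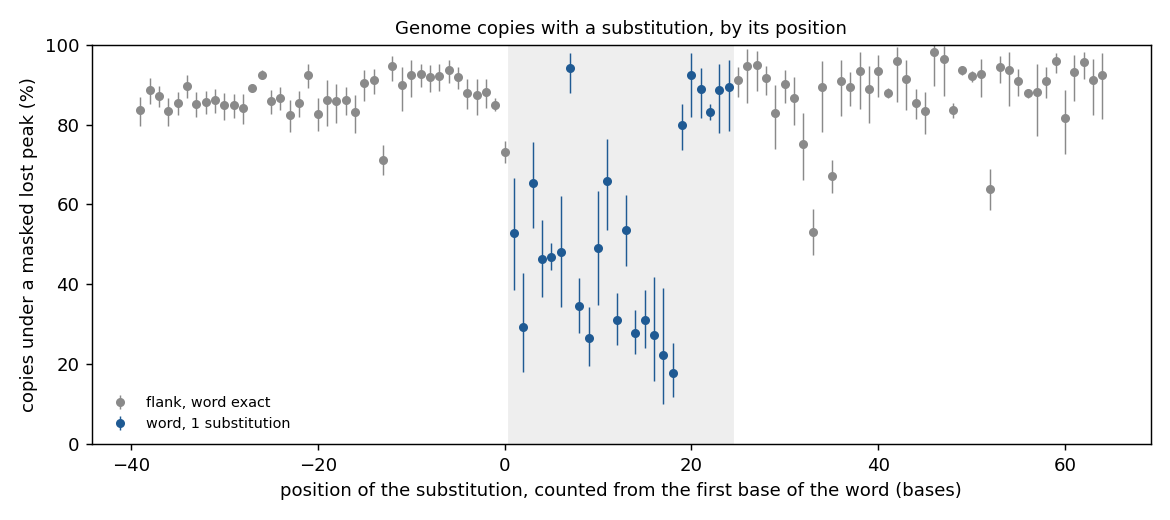
Share of aligned genome copies under a masked lost peak (%) by the position of a substitution, counted in bases from the start of the word, with exact binomial 95% intervals. Blue points in the shaded word are copies with 1 substitution there, and grey points are copies with an exact word and a different base at that flanking position. Values fall to 17.9% at position 18 and return to 79.8% at position 19, while position 7 inside the word reaches 94.2%.

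How uniquely the reads could be placed at such peaks was examined with 50-base windows, the length of the reads. In 7252 of the masked lost peaks (38.5%) no such window occurred once in the genome, against 10.6% of the shared peaks that were at least 50% masked and 0.794% of all shared peaks under 1000 bp, and the median masked lost peak had 12.6% of its windows once. How reads that align equally well to several copies were placed is not given in the sources used here. The fall with mismatches in the word was present at both ends of this scale. Around copies with no window found once, 95.6% of exact copies, 49.2% of copies with 1 mismatch and 8.51% with 2 were under a masked lost peak. Around copies with at least 75% of windows found once, these shares were 77.3% (72.6 to 81.5%) of 365 copies, 52.5% of 1163 and 13.6% of 1849.

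Of the 967 masked lost peaks without the word, 232 (24%) held it with 3 or 4 mismatches. As a group the 967 differed from the peaks with the word. Their median masked share was 77.9%, compared with 100% for those with the word, and 93.4% of their 50-base windows were found once at the median. They lay nearer to genes, with 43.7% in gene bodies and 30.7% within 10 kb of a transcription start site (TSS), against 25.5% and 10.5% of the peaks with the word. CANCCANG was present in 55.8% of them and GCGTGAC in 3.21%. Further repeated words were sought in the masked lost peaks with more than 4 mismatches to the first word, and of the 5 found, 2 were runs of AC or A and 2 overlapped or lay 62 bp from the first word. In all, 599 masked lost peaks held none of the 6 words with at most 2 mismatches. An example is the peak in Ethe1, shown because this gene is described below, from chr7:24592395-24592544 on the plus strand of GRCm38, with no capitals because it holds no word.
Ethe1 peak without a word: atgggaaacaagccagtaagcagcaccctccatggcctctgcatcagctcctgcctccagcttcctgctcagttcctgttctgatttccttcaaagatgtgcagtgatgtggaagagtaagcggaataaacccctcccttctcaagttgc

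Few peaks lay near the limits of the definition. Of the lost peaks under 1000 bp, 132 were 50% to under 55% masked and 161 were 45% to under 50%, whereas 17854 were over 90% masked. The widest masked lost peak measured 982 bp, 1 lost masked peak was excluded for its width, and 4 had a Pax5R31Q/- peak within 200 bp. The masked peaks that were kept were few, since 405 of the 19235 masked Pax5+/+ peaks under 1000 bp (2.11%) were shared, against 66.1% of the 21867 peaks under 50% masked. The peaks of the mutant list that met no Pax5+/+ peak were rarely masked, with 113 of 3337 under 1000 bp (3.39%).

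Masked lost peaks were spread over all chromosomes. They were present at 7.11 per Mb of sequence, with a median of 60.6 kb from one to the next, and 209 of 2668 windows of 1 Mb held none. Chromosome 3 had the highest density among the autosomes with 8.82 per Mb, and chromosome 11 the lowest with 4.17. Over the 19 autosomes their density had a Pearson correlation of 0.99 with the density of copies with at most 2 mismatches and of -0.52 with that of protein-coding genes, while the density of shared peaks had one of 0.87 with genes. Over all 21 chromosomes the correlations of masked lost peaks were 0.61 with copies and -0.21 with genes. These values describe chromosomes of a single library, and the word was taken from the same peaks, which by itself ties them to its copies.

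The sex chromosomes stood apart. The X chromosome had 1934 masked lost peaks (11.8 per Mb), which were 85.7% of all its peaks, and 19 copies per Mb. The Y chromosome had 14.3 copies per Mb but 317 masked lost peaks (3.60 per Mb). On Y, 48.4% of the 574 exact copies lay under a masked lost peak, compared with 89.8% on X and between 94.9% and 98.2% on the autosomes. Y therefore held 291 of the 799 exact copies in the genome without a Pax5+/+ peak, and without Y the share of exact copies under a masked lost peak was 96.2%. The median exact copy on Y had 0% of its 50-base windows found once, against 4.38% elsewhere.

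**Figure D3:**
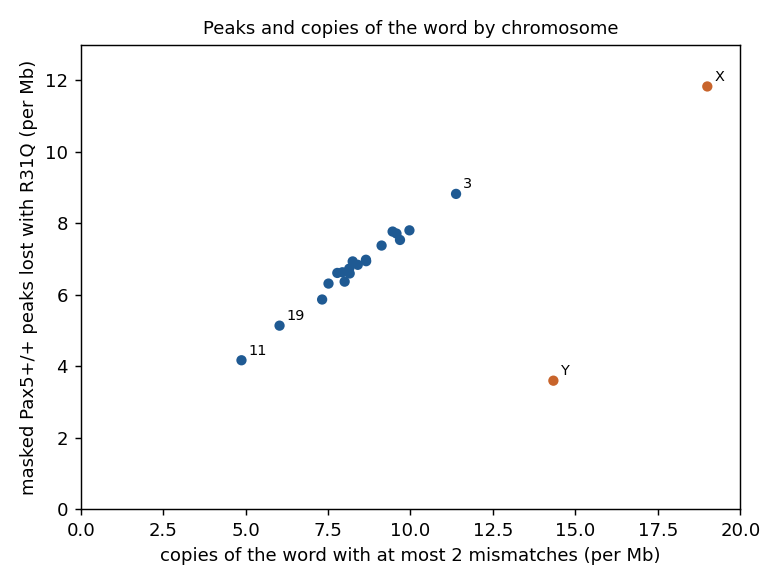
Masked lost peaks per Mb (vertical axis) against copies of the word with at most 2 mismatches per Mb (horizontal axis), with 1 point for each of the 21 chromosomes and X and Y in orange. The autosomes lie along a line from chromosome 11, at 4.17 peaks per Mb, to chromosome 3, at 8.82, and Y lies far below it.

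Masked lost peaks were scarce in and near genes. By their midpoints, 4972 (26.4%, 25.8 to 27%) lay in an annotated gene body, whereas gene bodies cover 46.9% of the genome, and 20 lay in an exon. Of the shared peaks under 1000 bp, 66.3% were in gene bodies and 34.9% in exons. Within 1 kb of a TSS lay 52 masked lost peaks (0.276%), of which 27 held the word, although 3.63% of the genome is that close, and 55.5% of shared peaks were. The median distance to the nearest TSS was 52373 bp for masked lost peaks, 12866 bp for the other lost peaks and 404 bp for shared peaks. Gene deserts, taken as stretches of at least 500 kb without an annotated gene, covered 5.76% of the genome and held 1703 masked lost peaks (9.04%) but 26 shared peaks (0.175%). The 405 shared peaks that were at least 50% masked lay between these groups, with 52.1% in gene bodies, 14.6% within 1 kb of a TSS, a median TSS distance of 12259 bp and 3.46% in deserts. The definition of masked lost peaks itself leaves out sequence with few masked bases. The shares of the genome given here are not limited to masked sequence. How far the definition sets the scarcity in exons and near TSSs was not tested.

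Within gene bodies, masked lost peaks and shared peaks had opposite gradients with expression. Genes were called expressed above a mean of 5 TPM in Pax5+/+ pro-B cells, weak from 1 to 5 TPM and silent below 1 TPM. Bodies of silent genes held 4.89 masked lost peaks per Mb, those of weak genes 3.05 and those of expressed genes 1.87, and deserts held 11.2. The ratio of expressed to silent genes was 0.381 for masked lost peaks, 7.40 for shared peaks and 2.68 for the other lost peaks. Exact copies of the word had a ratio of 0.284. The share of exact copies under a masked lost peak was 97.6% (96.8 to 98.2%) in silent, 97.6% in weak and 97.9% (96.1 to 99.1%) in expressed genes, so it changed little while the number of copies fell, and it was lowest in deserts with 91.2%. The masked lost peaks without the word had a ratio of 1.88, higher in expressed genes. The ratio was 0.277 with expressed genes above 20 TPM and silent genes below 0.1 TPM, and 0.305 for peaks with the word alone.

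**Figure D4:**
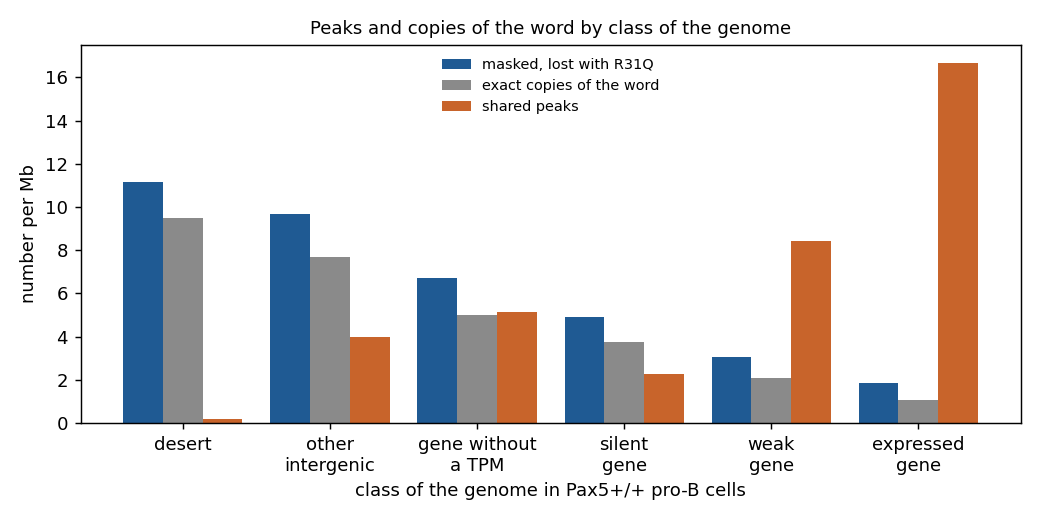
Number per Mb of masked lost peaks (blue), exact copies of the word (grey) and shared Pax5+/+ peaks under 1000 bp (orange) in 6 classes of the genome, from gene deserts to bodies of genes expressed in Pax5+/+ pro-B cells. Masked lost peaks fall from 11.2 per Mb in deserts to 1.87 in expressed genes, and shared peaks rise from 0.170 to 16.7.

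Copies in genes had a preferred orientation whether or not they were under a peak. Where a copy of the word with at most 2 mismatches lay in genes of 1 strand only, it was in the sense of the gene in 36.0% (34.6 to 37.4%) of 4438 copies under masked lost peaks and in 33.3% (30.7 to 35.9%) of 1283 copies without a Pax5+/+ peak.

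The genes with the most masked lost peaks were long and mostly silent. In total 2694 annotated genes held at least 1, and of the 1903 with a TPM, 63.1% were silent in Pax5+/+ cells, compared with 51.3% of all 24763 genes matched to a position. Their median length was 117 kb against 15 kb. The T cell receptor locus Tcra held 30, and it is listed without a TPM. Among genes with a TPM, Sntg1, which encodes a syntrophin of the dystrophin complex, held 23, all with the word, and it was at 0 TPM in all 8 libraries. The neuronal adhesion gene Cntnap2 and Agbl4, a carboxypeptidase gene, held 18 each, and neither was above 0.0386 TPM in any library. The dystrophin gene Dmd also held 18 and was between 0.247 and 0.518 TPM. Sgcz, which encodes a sarcoglycan, held 17, as did Sugct, followed by Gpc5 and Nkain2 with 16 and Dnah7c with 15, and none of these reached 1 TPM. The highest densities in genes of at least 100 kb were at Catsperb, a gene of a sperm cation channel, with 49.7 per Mb, Adgre4 with 48.2, the ferroxidase gene Heph with 42.0, the pseudogene Gm46188 with 40.8 and Hsf3, a heat shock factor gene, with 40.

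Masked lost peaks were also present in the immunoglobulin loci, which cannot recombine in the Rag2-/- cells of the Pax5+/+ list. Igk held 74 of them among 109 Pax5+/+ peaks (23.3 per Mb, on chr6:67555636-70726754), Igh 40 among 75 (14.5 per Mb, on chr12:113258768-116009954) and Igl 11 among 16 (47.0 per Mb, on chr16:19026858-19260844). The word was present in 68, 35 and 11 of these, and 49 of 52 exact copies at Igk, 22 of 23 at Igh and 8 of 8 at Igl were under a masked lost peak.

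The genes nearest to masked lost peaks were seldom expressed. The gene with the nearest TSS was expressed for 9.10% of masked lost peaks, silent for 40.9% and without a TPM for 46.8%. For shared peaks under 1000 bp the gene was expressed for 60.8%, and for those of them at least 50% masked for 30.4%. It was expressed for 36.2% of the other lost peaks and for 28.6% of masked lost peaks without the word. The share over the genome was not determined.

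To see how expression at these genes compared in the mutant, limma was run on log2(TPM + 1) over all 8 libraries, and a gene was called at a Benjamini-Hochberg adjusted p under 0.05, a change above 3-fold and a mean above 5 TPM in a genotype, without immunoglobulin genes. Over all 13098 genes, 0.58% were called lower and 0.29% higher in Pax5R31Q/- than in Pax5+/+ pro-B cells. Of the 782 tested genes with a masked lost peak in the body, 7 (0.895%) were called lower and 1 (0.128%) higher, which is close to the shares over all genes. Without Pax5+/+ library 2 or Pax5R31Q/- library 2, 4 and 3 genes were called lower. Of 1438 tested genes that had the nearest TSS to a masked lost peak, 14 (0.974%) were called lower and 4 (0.278%) higher. In bulk RNA, fewer cells of a kind and less RNA per cell cannot be told apart.

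The median log2 fold change was 0.11 in 568 genes with 1 masked lost peak, 0.14 in 185 with 2 to 4 and 0.13 in 29 with 5 or more, and 0.04 in 12316 genes without any. Genes with such peaks were longer, with a median of 108 kb against 18.2 kb. Among tested genes above 100 kb the median was 0.11 with and 0.04 without a masked lost peak, and the interquartile ranges, -0.09 to 0.29 and -0.17 to 0.25, overlapped widely. In Pax5-/- cells, 3.57% of all genes were called lower and 2.91% higher, compared with 32 (4.09%) and 34 (4.35%) of the 782 genes, and above 2-fold these shares were 7% and 5.66% of all genes and 9.08% and 7.54% of the 782. In Pax5+/- cells limma called 0.0229% of all genes lower, at 3-fold or 2-fold, and 0% higher, with none of the 782 in either direction, and 16 of the 782 (2.05%) were lower and 23 (2.94%) higher at an unadjusted p under 0.05, compared with 3.18% and 2.81% of all genes. All 3 comparisons share the Pax5+/+ libraries.

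The called genes with a masked lost peak in the body were few enough to be described individually. Alpl, the tissue-nonspecific alkaline phosphatase, was at 86.7 and 105 TPM in Pax5+/+, 40 and 53.5 in Pax5+/-, 23.1 and 15.7 in Pax5R31Q/- and 0.889 and 0.473 in Pax5-/- libraries. It was lower in the mutant by a log2 fold change of -2.26 ± 0.24 (SE, limma adjusted p = 0.0031), with no overlap between Pax5+/+ and Pax5R31Q/- libraries. It held 1 masked lost peak, without the word, beside 2 shared peaks and 1 lost peak outside the masked group. The gene of the G protein-coupled receptor Lgr5, with 1 masked lost peak that held the word, was at 48 and 46.1 TPM in Pax5+/+, 21.1 and 25.3 in Pax5+/-, 13 and 9.17 in Pax5R31Q/- and 0.169 and 0.406 in Pax5-/- libraries (mutant log2 fold change -2.01 ± 0.20, limma adjusted p = 0.0027). Lgr5 also held 2 shared peaks and 1 lost peak outside the masked group. In both genes the Pax5+/- libraries lay between those of Pax5+/+ and Pax5R31Q/- cells, and Pax5-/- libraries were lowest.

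Cd36, which encodes a fatty acid receptor, held 2 masked lost peaks with the word, 1 lost peak outside the masked group and no shared peak. It fell from 12.2 and 11.3 TPM in Pax5+/+ to 1.96 and 1.76 TPM in Pax5R31Q/- libraries (log2 fold change -2.16 ± 0.22, limma adjusted p = 0.0026), with 4.28 and 5.81 TPM in Pax5+/- and 0.533 and 0.126 TPM in Pax5-/- libraries. D030045P18Rik, with 1 peak with the word and 1 lost peak outside the masked group, fell from 5.24 and 6.81 to 0.797 and 0.388 TPM. It was at 0 in both Pax5-/- libraries. Pipox, the gene of a peroxisomal oxidase of pipecolic acid, held 1 peak without the word beside 1 shared peak. It fell from 10.8 and 8.31 to 2.31 and 1.49 TPM. Auts2, a large gene with a role in transcription in neurons, held 2 peaks with the word among 1106 kb. It also held 3 shared peaks and 2 lost peaks outside the masked group. Its expression fell from 4.02 and 6.40 to 1.15 and 0.746 TPM (limma adjusted p = 0.0085). The Auts2 call was lost without Pax5+/+ library 2, Pax5R31Q/- library 1 or Pax5R31Q/- library 2, at log2 fold changes of -1.37, -1.80 and -1.50. Of these, -1.37 and -1.50 were below 3-fold. Leaving out 1 library also ended the calls of Alpl without Pax5+/+ library 2 (limma adjusted p = 0.0502), and of Cd36 and Pipox without Pax5R31Q/- library 2 (0.052 and 0.061). Cacna2d1, which encodes a subunit of calcium channels, held 3 masked lost peaks, 2 with the word, and was at 12.4 and 18.1 TPM in Pax5+/+ and 4.55 and 3.87 TPM in Pax5R31Q/- libraries (log2 fold change -1.62 ± 0.21, limma adjusted p = 0.0069). Its call was lost without Pax5R31Q/- library 1 or 2, at limma adjusted p of 0.07 and 0.095, and without Pax5+/+ library 2, where the log2 fold change of -1.36 was below 3-fold.

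Dlg2 was the only gene with a masked lost peak in the body called higher in the mutant by the main test. Its 1973 kb held 13 such peaks, all with the word, beside 2 shared peaks and 5 lost peaks outside the masked group. It was at 4.08 and 3.08 TPM in Pax5+/+, 7.07 and 7.04 in Pax5+/-, 14.3 and 11.6 in Pax5R31Q/- and 6.92 and 8.57 in Pax5-/- libraries, a log2 fold change of 1.61 ± 0.19 in the mutant (limma adjusted p = 0.0051). Both mutant libraries were above all the others. Its change lay close to the 3-fold limit, since quantile normalization and median-ratio scaling gave 1.55 and 1.57, below it, at limma adjusted p of 0.0042 and 0.0026. Without Pax5R31Q/- library 1, Pax5R31Q/- library 2 or Pax5+/+ library 2 the limma adjusted p was 0.078, 0.055 and 0.051.

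At transcription start sites, 15 tested genes had a masked lost peak within 1 kb, and their median log2 fold change in the mutant was 0.01. Of the 15, 3 changed more than 2-fold at an adjusted p under 0.05, compared with 1.25% of all genes lower and 0.855% higher at this threshold, and the word was absent from the peaks at all of them. Mgst2, a microsomal glutathione transferase gene, had a 271-bp peak 720 bp from its TSS and was at 168 and 154 TPM in Pax5+/+, 121 and 140 in Pax5+/-, 54.3 and 51.6 in Pax5R31Q/- and 218 and 228 in Pax5-/- libraries. It was lower in the mutant (log2 fold change -1.59 ± 0.11, limma adjusted p = 9.0e-04), while Pax5-/- libraries were the highest. The body of Mgst2 held 1 lost peak outside the masked group. Ethe1, which encodes a mitochondrial sulfur dioxygenase, has the peak whose sequence is shown above 267 bp from a TSS and 3 shared peaks, and it was at 181 and 195 TPM in Pax5+/+, 176 and 169 in Pax5+/-, 79.6 and 87.5 in Pax5R31Q/- and 83.0 and 60.8 in Pax5-/- libraries (log2 fold change -1.16 ± 0.15, limma adjusted p = 0.0076). Without Pax5+/+ library 2, Pax5R31Q/- library 1 or Pax5R31Q/- library 2 the limma adjusted p for Ethe1 was 0.077, 0.094 and 0.079. Ehd3, the gene of a protein of endocytic recycling, rose from 3.87 and 3.26 TPM in Pax5+/+ to 36.5 and 32.6 in Pax5R31Q/- libraries (log2 fold change 2.96 ± 0.15, limma adjusted p = 2.6e-04) and reached 190 and 226 TPM in Pax5-/- libraries. Its 314-bp peak lay 750 bp from the TSS and was 51.3% masked, and that of Mgst2 51.7%, both close to the limit of 50%.

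**Figure D5:**
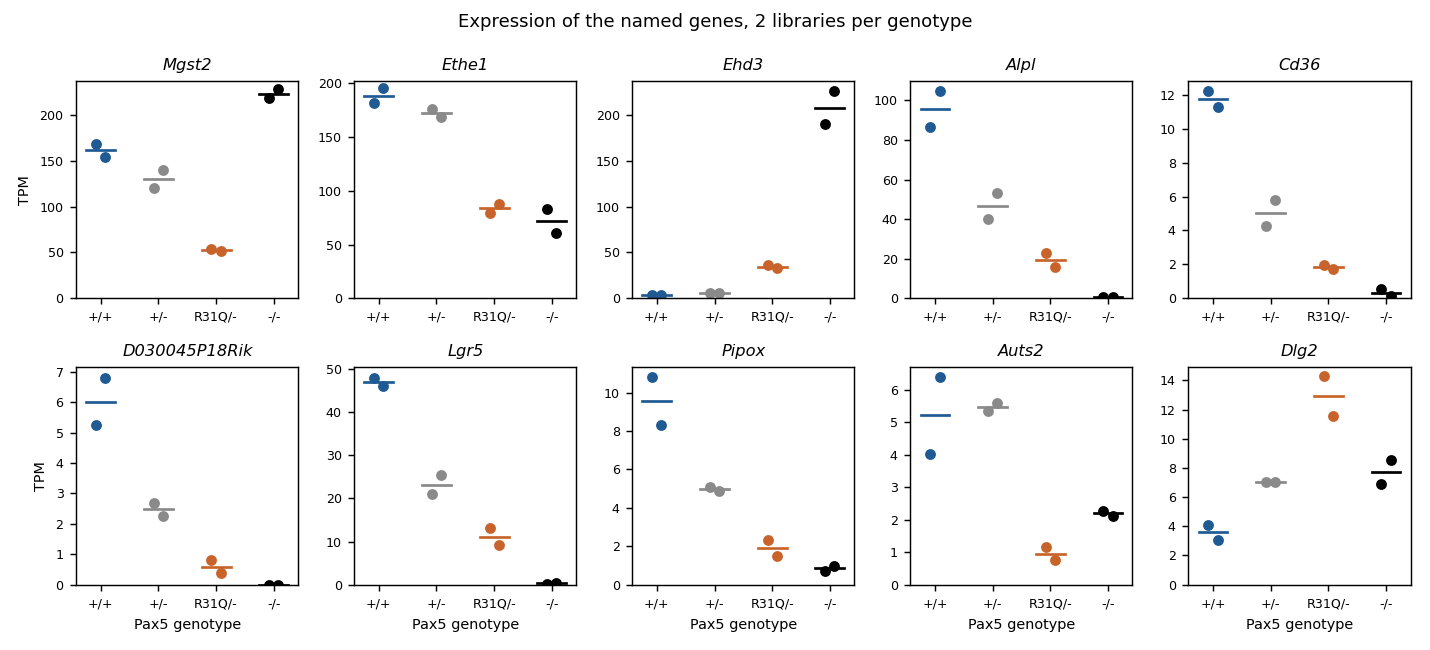
TPM of 10 named genes with a masked lost peak at a TSS or in the body. Shown are 2 libraries (points) and their mean (line) for each of the Pax5 genotypes +/+, +/-, R31Q/- and -/-. Cacna2d1 is not shown. Each gene has its own axis from 0. Pax5R31Q/- libraries lie below Pax5+/+ libraries in 8 of the genes shown and above them in Ehd3 and Dlg2.

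Of 38 genes known to be regulated by Pax5 in pro-B cells, 0 held a masked lost peak in the body, and 5.97% of all tested genes did, so that the count is near that share. A shared peak was held by 26 of the 38, and by 48.7% of all tested genes. Of these 38 genes, 15 were called lower and 3 higher in Pax5R31Q/- cells, with a median log2 fold change of -1.02, and this list was assembled with results of the study known. Ebf1, a B cell transcription factor gene, had a masked lost peak without the word 281 bp from a TSS and was at a log2 fold change of -0.26 (limma adjusted p = 0.29). Genes that silence repeats through histone H3 lysine 9 and DNA methylation were also examined. The list held 21 such genes, all of them tested, and limma called none in the mutant. Of all genes 0.58% were called lower and 0.29% higher there, so that a count of 0 is near these shares. At an unadjusted p under 0.05 were 5 of the 21, and 18.6% of all tested genes. Their log2 fold changes ranged from -0.11 to 0.70 with a median of 0.28, and the median of all genes was 0.05. The corepressor gene Trim28 was at 546 and 433 TPM in Pax5+/+ and 603 and 590 in Pax5R31Q/- libraries, and the H3K9 methyltransferase gene Setdb1 at 52.9 and 45.6 and at 62.6 and 57.5 TPM. Ehmt1, another H3K9 methyltransferase gene, was the only member with a masked lost peak, which lacked the word.

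In the libraries as a whole, Pax5 was at 418 and 444 TPM in Pax5+/+, 272 and 287 in Pax5+/-, 306 and 293 in Pax5R31Q/- and 1242 and 1409 in Pax5-/- cells. A value per gene cannot show the deleted part, so it does not check that genotype. The 10 pro-B cell markers summed to between 14556 and 18565 TPM in libraries with a Pax5 allele and 7724 and 8467 TPM in Pax5-/- libraries. The 6 myeloid markers summed to between 176 and 960 TPM, 7 T and NK cell markers to at most 15.6 TPM outside Pax5-/- and 68.2 TPM within it, and 4 erythroid markers to at most 27.4 TPM, with Hbb-bs at 0. In the comparison of the mutant, myeloid markers were at 239 and 323 TPM in Pax5+/+ and 484 and 521 TPM in Pax5R31Q/- libraries. The 3 pre-B cell markers were at 35.1 and 24.7 TPM and at 60.7 and 36.6 TPM. Both mutant libraries were higher for both lists, and their part in the results was not tested.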

How the data were processed

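ChIP-seq reads had been mapped to mouse build GRCm38 with Bowtie2 2.3.5.1 by the authors. They ran MACS with an input control and deposited peak positions, with a score of 0 in every line and no height, summit or depth. TPM values per gene, from STAR and featureCounts, were deposited by the authors and sum to the same total in every library, so RNA depth is unknown. The peaks were compared by position (overlap of 1 base). Masked bases, genes and TSSs came from RefSeq GRCm38.p6, to which 24764 of 25579 symbols were matched. The leading word was the most frequent sequence of 24 bases, counted 1 time per peak. TPM was tested in limma 3.58.1 (R 4.3.3) on log2(TPM + 1) with a TPM of at least 1 in a library, 13436 genes in all, with a trend of the variance, on all 8 libraries. The script was tested on simulated data. P-values measure the spread between libraries, which may be technical.

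Genes named are the 10 with the most peaks in the body and 5 with the most per Mb, those with a peak within 1 kb of a TSS and a change over 2-fold, the 6 largest called changes in each direction with a peak in the body, and list members with a peak. Cacna2d1 and Ebf1 were named after their values were seen. The members and lists were chosen with earlier results of these data known, and the search for CANCCANG and the alignment of copies through a second word were added after the sequences were seen. With 1 ChIP-seq library per genotype, peaks have no replicate check and no test.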

Additional observations from a re-analysis of the deposited data

How the results depend on the processing

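No paired analysis was possible because the labels give no replicate numbers, and the numbers used here only name the libraries. The number of masked lost peaks stayed between 18306 and 20181 under all 6 alternatives. Peaks with the word were 73.5% for exact matches, 96.1% with up to 4 mismatches, and 88.5% and 97.2% for masked shares of at least 25% and 75%. Copies under a masked lost peak were 72%, and 94.3% for exact copies and 74.5% without chromosome Y. The share in gene bodies was 19.1% for protein-coding genes, and 28.7% and 25.7% for masked shares of 25% and 75%. Deserts held 24.8%, 1.08% and 44.8% of peaks with limits of 250 kb or 1 Mb or protein-coding genes alone, when they covered 15.8%, 0.742% and 29.8% of the genome. Within 0.2 kb and 2.5 kb of a TSS lay 0.0159% and 1.14%. The ratio of expressed to silent genes was 0.429 with a single limit of 1 TPM, 0.277 with limits of 20 and 0.1 TPM, and 0.305 for peaks with the word, so its direction held.

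Genes called lower numbered 14 by nearest TSS, and genes called higher 4 by nearest TSS, 4 with a pseudocount of 0.1, 6 at 2-fold and 0 with quantile normalization or median-ratio scaling. Leaving out 1 library gave 3 to 8 genes lower and 0 to 2 higher. Without Pax5+/+ replicate 2 they were 4 lower, and without Pax5R31Q/- replicate 2 they were 3, where the lone library is assumed to vary like the other groups. Settings without chromosome Y or for peaks with the word alone were chosen after seeing the data. The cause of these differences was not tested. Peak depth is unknown, so a site under the peak threshold is not shown to be unbound.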
